A study of Mus musculus with 4 samples.

Results

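The genes of cerebral cavernous malformation were followed in single nuclei of the mouse thalamus, the brain relay that was injected with collagenase in this study to model the pain that follows a thalamic haemorrhage. The 7 genes were Krit1, Ccm2 and Pdcd10, whose products form the CCM complex, the complex's membrane partner Heg1, the kinase gene Map3k3, and the transcription factor genes Klf2 and Klf4. They were matched by symbol, and each was found once among the 40091 genes that the 4 libraries listed. The animals were wild-type C57BL6 mice of 7 to 8 weeks. The NS group was microinjected with saline into the right ventral posteromedial and posterolateral nuclei (VPM and VPL), and the COL group with Coll IV, collagenase at 0.01 U in 10 nl of saline. Tissue was taken 7 days later. There were 2 libraries per group, and each pooled nuclei of 3 mice, so that animals within a library cannot be told apart.

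The CCM proteins are best known from the endothelium. HEG1 holds KRIT1 at the junctions between endothelial cells, and KRIT1, CCM2 and PDCD10 together restrain the kinase MAP3K3, also called MEKK3. Free MEKK3 drives a cascade through MAP2K5, MAPK7 (ERK5) and MEF2 factors to KLF2 and KLF4, which control thrombomodulin, endothelial nitric oxide synthase and matrix-cleaving ADAMTS proteases. Loss of Krit1, Ccm2 or Pdcd10 in brain endothelium leads to leaky vessels that tend to bleed.

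The sequence before the gene Klf2 was searched for the site of the MEF2 factors. They bind a palindromic site, here searched as CTANNNNTAG with its middle bases left free. This pattern reads the same on both strands, and a match to it need not be a MEF2 site. The bases directly before the annotated start of Klf2 are shown because Klf2 was the member that passed the test of COL against NS, with the match in capitals. They lie on the plus strand of mouse chromosome 8 at chr8:72318812-72319032 in GRCm38, upstream of exon 1, and the match lies at chr8:72318944-72318953, which begins 89 bases before the gene.

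Klf2 upstream: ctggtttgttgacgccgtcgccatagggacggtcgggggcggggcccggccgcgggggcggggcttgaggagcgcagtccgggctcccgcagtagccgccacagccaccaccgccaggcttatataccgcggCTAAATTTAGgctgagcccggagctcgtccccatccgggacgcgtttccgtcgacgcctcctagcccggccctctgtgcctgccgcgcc

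Over all RefSeq windows of 300 bases around a start, 3.69% of 32851 held a match. Among the 9 windows of the members, the 1 of Klf2 and the 2 overlapping ones of Krit1 held it. A match in these letters is a description and does not show binding.

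The deposited tables held counts of unique molecular identifiers (UMIs) per gene and nucleus, between 68746459 and 77557870 per library, and 32291 of 32332 nuclei were kept. The median nucleus held 6489 and 4649 UMIs in the NS libraries and 8664 and 8691 in the COL libraries. Levels are given as CPM, the UMIs of a gene scaled to a total of 1000000 UMIs over the same nuclei. Nuclei were assigned by marker genes that included none of the members. Each of the 4 libraries held 20 or more nuclei of 5 types, which were neurons (15840 nuclei), oligodendrocytes (8746), oligodendrocyte precursors (OPCs, 966), astrocytes (1979) and microglia (1226). By clustering, 96.31% of these nuclei had the same type, and 4.62% lay near the threshold of the assignment. By type the share near the threshold was 2.1% in neurons, 4.6% in oligodendrocytes, 16.9% in OPCs, 14.3% in astrocytes and 12.6% in microglia. The sampled tissue differed between groups. Astrocytes numbered 903 and 758 in the NS libraries against 122 and 196 in the COL libraries, and macrophages 0 and 5 against 126 and 161. No cluster was named macrophage, so 0 of these 292 macrophage nuclei had the same type by clustering, and 19.9% lay near the threshold. Cluster 9, led by macrophage markers but named mixed, held 8 NS and 790 COL nuclei. Clusters also split by group. Oligodendrocyte clusters 1 and 7 held 5629 NS and 8 COL nuclei, and cluster 2 held 10 NS and 3174 COL nuclei. Among the neurons, cluster 0 held 4651 NS and 57 COL nuclei, cluster 3 held 232 and 2792, and cluster 17 held 460 and 6. Microglial cluster 12 held 657 NS and 9 COL nuclei, against 3 and 712 in cluster 10 and 4 and 200 in cluster 22. Astrocyte cluster 5 held 2214 and 6 and cluster 16 held 77 and 457, and OPC cluster 13 held 625 and 8 and cluster 11 held 206 and 506. The COL effects within all 5 types thus compare nuclei that lay to a large extent in different clusters, and their part in any difference between the groups was not tested. The labels give no preparation batch, so group and preparation cannot be told apart. The libraries shared 8 to 31 barcodes per pair.

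The cell type in which this pathway is best known was hardly sampled. Only 27 nuclei passed the endothelial markers, with 4 and 8 in the NS libraries and 6 and 9 in the COL libraries, and 61 passed the mural markers. No test of the groups was therefore made in vascular cells, and whether these genes changed in endothelium was not tested.

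All 7 genes were detected in every library. Krit1 (ENSMUSG00000000600, chr5:3803184-3845564, plus strand) encodes the scaffold of the CCM complex. It had 120.6 and 131.4 CPM over all nuclei of the NS libraries and 131.5 and 128.0 CPM in the COL libraries, which overlapped. Its last bases overlap Lrrd1 on the same strand over 392 bases, so reads there could belong to either. Oligodendrocytes had the highest level of the 5 types, at 160.7, 161.9, 189.3 and 155.5 CPM, with the NS libraries given first (mean 166.9 ± 15.2, SD, n = 4). Against the mean of the other 4 types this was 0.66 higher on the log2 scale (SE 0.075, edgeR adjusted p = 2.1e-07). By CPM microglia followed at 137.9 ± 17.2, neurons at 120.6 ± 4.15 CPM and OPCs at 119.8 ± 13.5 CPM, and these 3 neighbours did not pass a test between any pair. After TMM scaling the order of microglia was the opposite, with neurons 0.10 and OPCs 0.05 above them (adjusted p = 0.42 and 0.74). Astrocytes had the lowest level, 99.6 ± 9.74 CPM, which was 0.40 lower than the mean of the other types (SE 0.086, adjusted p = 0.00064). OPCs lay 0.26 above astrocytes (adjusted p = 0.076), and astrocytes differed from microglia by -0.20 (adjusted p = 0.14), and neither pair passed.

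Ccm2 (ENSMUSG00000000378, chr11:6546887-6596744, plus strand) encodes the adaptor that links KRIT1 to MEKK3. Of the 5 tested types it was highest in microglia, with 161.1 and 137.5 CPM in the NS libraries and 99.0 and 113.0 CPM in the COL libraries. The few T/NK nuclei had more, 199.4 and 227.6 CPM in COL, from 36 and 50 UMIs. The other 4 types had means of 38.8 to 45.1 CPM, with no pair of them different by the test. Microglia stood 1.31 above the mean of the others on the log2 scale (SE 0.12, edgeR adjusted p = 1.4e-08). OPCs and astrocytes were 0.48 and 0.41 lower than the mean of the other types (adjusted p = 0.011 and 0.018), a mean that held microglia.

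Pdcd10 (ENSMUSG00000027835, chr3:75516490-75556856, minus strand) encodes the third protein of the complex, which binds the germinal centre kinases of group III. Microglia had 58.9 ± 12.8 CPM over the 4 libraries, oligodendrocytes 43.1 ± 5.53 CPM, astrocytes 39.9 ± 11.9 CPM, OPCs 36.4 ± 5.18 CPM and neurons 35.9 ± 4.03 CPM. Microglia were 0.28 above the mean of the other types (SE 0.11, adjusted p = 0.038) and neurons 0.23 below it (SE 0.088, adjusted p = 0.027). The call in microglia was lost when NS replicate 1, NS replicate 2 or COL replicate 2 was left out, with edgeR adjusted p between 0.13 and 0.17, and the call in neurons without the same libraries, at 0.21, 0.10 and 0.18.

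Heg1 (ENSMUSG00000075254, chr16:33684370-33771576, plus strand) differed widely between types. In the 27 endothelial nuclei it reached 943, 941, 1204 and 666 CPM in the libraries in the same order, from 121 UMIs in all. Mural nuclei had 399.7, 202.3, 266.0 and 324.0 CPM. Among the 5 tested types, oligodendrocytes had 199.1, 202.4, 210.3 and 229.6 CPM, 3.20 above the mean of the other types on the log2 scale (SE 0.11, edgeR adjusted p = 8.2e-16). Astrocytes came next with 66.6, 66.2, 60.4 and 63.8 CPM, 0.98 above the mean of the others (SE 0.13, adjusted p = 4e-06). OPCs, the precursors of oligodendrocytes, had only 13.8, 13.3, 11.98 and 13.5 CPM, 4.10 lower than oligodendrocytes (SE 0.19, adjusted p = 5.5e-13). Microglia were near the OPCs at 15.5 ± 1.18 CPM, and these neighbours did not pass a test (adjusted p = 0.91). Each neighbouring pair in the order oligodendrocyte, astrocyte, neuron and microglia did pass. Flt1, an endothelial receptor gene, was at 0.42, 1.12 and 1.66 CPM in clusters 1, 2 and 7 of oligodendrocytes, where Heg1 had 178.3, 227.0 and 260.1 CPM.

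Map3k3 (ENSMUSG00000020700, chr11:106084613-106155446, plus strand) encodes MEKK3 and was also highest in microglia among the 5 tested types. Microglia had 302.1, 378.9, 267.6 and 220.9 CPM, against means of 87.2 to 100.4 CPM in the other 4 types. This was 1.31 above the mean of those types (SE 0.095, adjusted p = 2.5e-10). No pair among neurons, oligodendrocytes, OPCs and astrocytes passed a test, the nearest being oligodendrocytes against astrocytes (0.30, adjusted p = 0.06).

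In all, 6 of the 25 contrasts of a member with the other types were called with a higher level. They were 2 of 5 in oligodendrocytes, where 27.4% of all genes tested were called higher, 3 of 5 in microglia (27.9% of all genes), 1 of 5 in astrocytes (21.8%), and 0 of 5 in neurons (31.8%) and OPCs (19.7%). Lower levels were called for 3 of 5 members in OPCs (17.2% of all genes) and astrocytes (23.8%), 2 in neurons (37.1%), 1 in microglia (29.1%) and 0 in oligodendrocytes (30.5%). With 5 members per type, nothing particular to the list can be read from these counts.

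**Figure D1:**
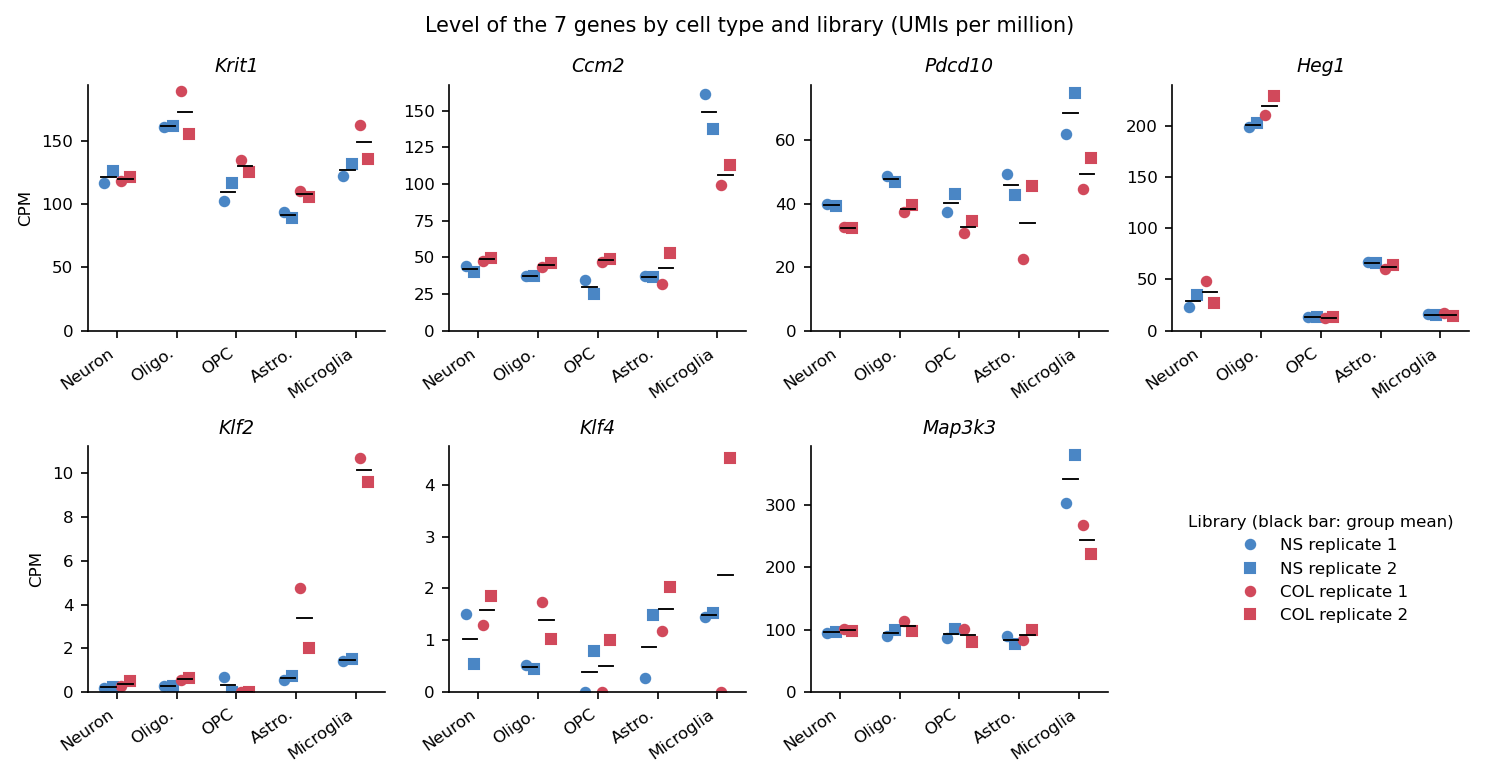
Level of each of the 7 genes (CPM, linear axes that start at 0) in the 5 cell types, with 1 point per library and a black bar for the mean of each group of 2 libraries. Heg1 stood highest in oligodendrocytes, and Ccm2 and Map3k3 in microglia, in all 4 libraries.

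Klf2 (ENSMUSG00000055148, chr8:72319033-72321656, plus strand) and Klf4 (ENSMUSG00000003032, chr4:55527143-55532466, minus strand) were too rare for these contrasts between types. Klf2 had 23, 23, 65 and 84 UMIs in the 4 libraries and Klf4 100, 41, 109 and 151. Endothelial nuclei had 134.8, 67.2, 66.9 and 95.2 CPM of Klf2, from 1, 1, 4 and 4 UMIs. T/NK nuclei had 291 CPM in NS replicate 1, from 4 UMIs of 7 nuclei, and 0, 11.1 and 4.55 CPM in the other libraries. No Klf2 or Klf4 UMI fell in mural nuclei, whose 180062 UMIs would show 3 UMIs only above 16.7 CPM.

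Within the neurons, Heg1 varied more between libraries than the other complex genes. It had 22.7 and 34.7 CPM in the NS libraries and 48.4 and 27.3 CPM in the COL libraries, which overlapped. Neurons with glutamate transporter genes had 38.5, 57.1, 64.3 and 42.5 CPM and neurons with GABA genes 14.2, 13.98, 18.7 and 12.6 CPM, so the glutamate class was higher in every library. The gene Tcf7l2, a transcription factor of thalamic relay neurons, was used to split neurons after the values had been seen. Neurons with at least 5 Tcf7l2 UMIs per 10000 had 54.3, 65.0, 63.6 and 55.0 CPM of Heg1, and the rest 14.4, 20.5, 29.6 and 16.6 CPM. The high class made up 739 of 5279, 1161 of 4590, 1520 of 3117 and 727 of 2854 neurons. In that class the group means were 59.7 ± 7.54 and 59.3 ± 6.08 CPM (SD, n = 2). COL replicate 1, with the highest level over all neurons, also had the most neurons of the high class. The part of this makeup in the level over all neurons was not tested.

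**Figure D2:**
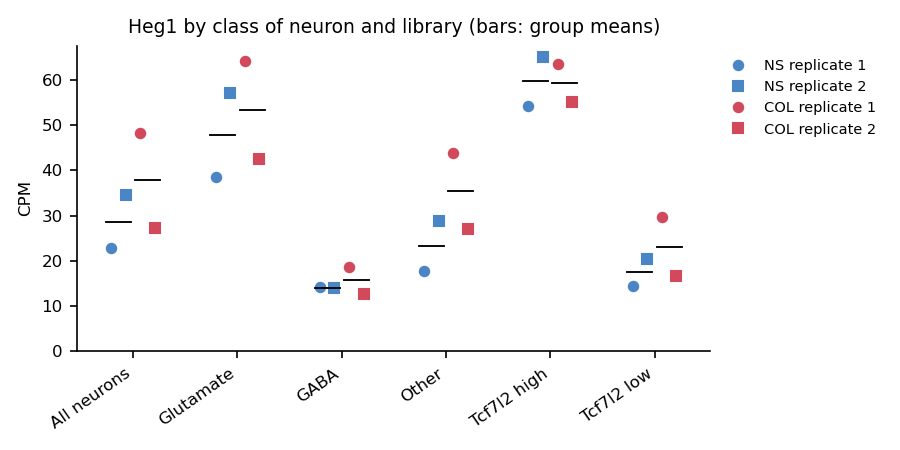
Heg1 level (CPM, linear axis) in all neurons and in classes of neurons, with 1 point per library and bars for group means. In every library, glutamate neurons lay above GABA neurons and Tcf7l2-high neurons above Tcf7l2-low neurons.

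COL was then compared with NS within each cell type, to ask whether the injury moved the CCM genes. No member was called in any of the 28 tests that had enough UMIs. Over all genes in the same tests 13.5% were called. At an unadjusted p under 0.05 there were 5 of 28, beside 32.7% of all tests, and DESeq2 called 0, beside 11.2%. By type, edgeR with adjustment called 0.462% of all genes in neurons, 23% in oligodendrocytes, 15.6% in OPCs, 14.4% in astrocytes and 23.8% in microglia. The 111 calls in neurons became 0 and 37 without NS replicates 1 and 2, and 816 and 6411 without COL replicates 1 and 2, so this background itself depends on single libraries. All 7 members passed the filter on low counts in neurons, 6 in oligodendrocytes and 5 in each of the other types. Those left out were Klf2 and Klf4, and in oligodendrocytes Klf4 passed through the COL libraries alone. The members' median log2 fold change was 0.38 in neurons, 0.22 in oligodendrocytes, 0.01 in OPCs, 0.20 in astrocytes and -0.44 in microglia, beside -0.02 to 0.01 over all genes tested.

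Krit1 differed between the groups by 0.13 in neurons on the log2 scale (SE 0.14), 0.18 in oligodendrocytes (SE 0.18), 0.31 in OPCs (SE 0.18), 0.28 in astrocytes (SE 0.16) and 0.25 in microglia (SE 0.20). The edgeR adjusted p-values for Krit1 lay between 0.28 and 0.56. In OPCs it had 102.6 and 116.8 CPM against 134.4 and 125.3 CPM, and in astrocytes 93.8 and 89.2 CPM against 110.1 and 105.2 CPM, without overlap. In neurons the libraries overlapped at 116.9, 126.2, 118.0 and 121.2 CPM, and with library totals as the only scaling the difference there was -0.02.

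Ccm2 came closest to the threshold. In OPCs it had 34.4 and 25.1 CPM in NS and 47.1 and 48.6 CPM in COL, a log2 fold change of 0.75 (SE 0.25, edgeR adjusted p = 0.054). The groups did not overlap. In microglia the sign was the opposite, with the COL libraries 0.47 lower on the log2 scale (SE 0.19, adjusted p = 0.086). Neurons had 43.8 and 39.7 CPM against 47.7 and 49.3 CPM (0.38, SE 0.13, adjusted p = 0.13), and oligodendrocytes 37.1 and 37.2 CPM against 43.1 and 45.9 CPM (0.34, SE 0.17, adjusted p = 0.17). In each of these types the values compare clusters that split by group, as given above. By class of neuron, the groups overlapped in GABA and Tcf7l2-high neurons. They did not overlap in glutamate neurons, in neurons of neither transmitter class or in Tcf7l2-low neurons. The part of the makeup of neurons in the Ccm2 difference was not tested. Whether the COL effect differed between the 5 types was tested in 1 joint fit. Its scaling and effects differ from those of the separate fits per type, so its p-value does not belong to the fold changes above. Ccm2 was the 1 member called of the 6 tested (edgeR interaction, adjusted p = 0.043), where 18.1% of all genes were called. The call was lost without any one of 3 libraries, at adjusted p of 0.28 and 0.16 without NS replicates 1 and 2 and 0.09 without COL replicate 1, and with a stricter lead in the assignment of types (0.28). In the joint fit, microglia against neurons differed in the COL effect by -0.53 (SE 0.19, adjusted p = 0.074).

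Map3k3 showed the same sign as Ccm2 in microglia, -0.46 (SE 0.19, edgeR adjusted p = 0.086), with 302.1 and 378.9 CPM in NS above 267.6 and 220.9 CPM in COL. In the other 4 types its differences were between 0.01 and 0.24, and its interaction was not called (adjusted p = 0.17). With microglia taken from clusters in place of the assignment by markers, both genes were called lower in COL, Ccm2 at -0.69 (adjusted p = 0.012) and Map3k3 at -0.57 (adjusted p = 0.028). In that setting 28.69% of all genes were called. The microglial clusters split almost wholly by group, as given above, so these calls are no further support. Several other measures moved with the levels of Ccm2 and Map3k3 in microglia. The 8 microglial markers summed to 6662 and 6447 CPM in the microglia of NS and 4329 and 4225 CPM in those of COL, and the 8 macrophage markers, 7 of which were detected, to 158 and 191 CPM against 337 and 421 CPM. Macrophages themselves had 65.7 and 64.5 CPM of Ccm2 and 161.0 and 183.2 CPM of Map3k3 in COL. The part of these measures in the lower levels was not tested.

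Pdcd10 had a lower mean CPM in COL in all 5 types, without overlap of the libraries in every type but astrocytes. Neurons had 39.7 and 39.1 CPM against 32.6 and 32.2 CPM, oligodendrocytes 48.8 and 46.7 CPM against 37.3 and 39.5 CPM, OPCs 37.2 and 43.1 CPM against 30.8 and 34.6 CPM, and microglia 61.9 and 74.9 CPM against 44.6 and 54.2 CPM. Astrocytes had 49.2 and 42.6 CPM against 22.5 and 45.5 CPM, a difference of -0.31 (SE 0.27, edgeR adjusted p = 0.49). In the other types, after TMM scaling, the differences were -0.12 (SE 0.14), -0.23 (SE 0.16), -0.22 (SE 0.25) and -0.44 (SE 0.25), and none was called (edgeR adjusted p = 0.24 to 0.61). TMM and library totals differed by 0.16 in the median log2 fold change of all genes in neurons, so differences of this size for a gene depend on the scaling.

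Heg1 had a difference of 0.58 in neurons (SE 0.38, edgeR adjusted p = 0.35), which rested on COL replicate 1. Without that library it was -0.04, and without COL replicate 2 it was 0.94 (adjusted p = 0.018). In oligodendrocytes, where Heg1 was highest of the tested types, the groups did not overlap, but the difference of 0.21 was not called (SE 0.15, adjusted p = 0.35). In OPCs, astrocytes and microglia its differences were -0.01, -0.04 and 0.00, with SEs of 0.37, 0.18 and 0.41.

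Libraries of the groups did not overlap for 20 of 35 values of a member in a type, 4 of 7 in neurons, 5 of 7 in oligodendrocytes, 3 of 7 in OPCs, 3 of 7 in astrocytes and 5 of 7 in microglia. Among all genes of at least 10 UMIs the shares were 57.4%, 64.7%, 55.7%, 57.7% and 60%. The members' values, here and in the shares below, were counted without that limit. They include Klf2 and Klf4 in OPCs (1 and 3 UMIs) and Klf4 in astrocytes (9 UMIs), whose CPM overlapped between the groups. The share of nuclei with a UMI was also compared after each nucleus had been thinned to 1000 UMIs, since depth differed between the groups. Nuclei of microglia with a Ccm2 UMI made up 13.8% and 11.7% in NS and 9.76% and 11.1% in COL. The unthinned shares went the other way, as 28.8% and 23.2% against 29.6% and 38.2%. An exact permutation test over 4 libraries cannot give a two-sided p below 0.3333, and that value was reached, with no overlap of the groups, by 17 of the 35 shares thinned to 1000 UMIs, 19 thinned to 2000 UMIs and 31 unthinned. Over all genes of at least 10 UMIs in a type, 48.5%, 52.9% and 67.4% of such shares did not overlap.

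**Figure D3:**
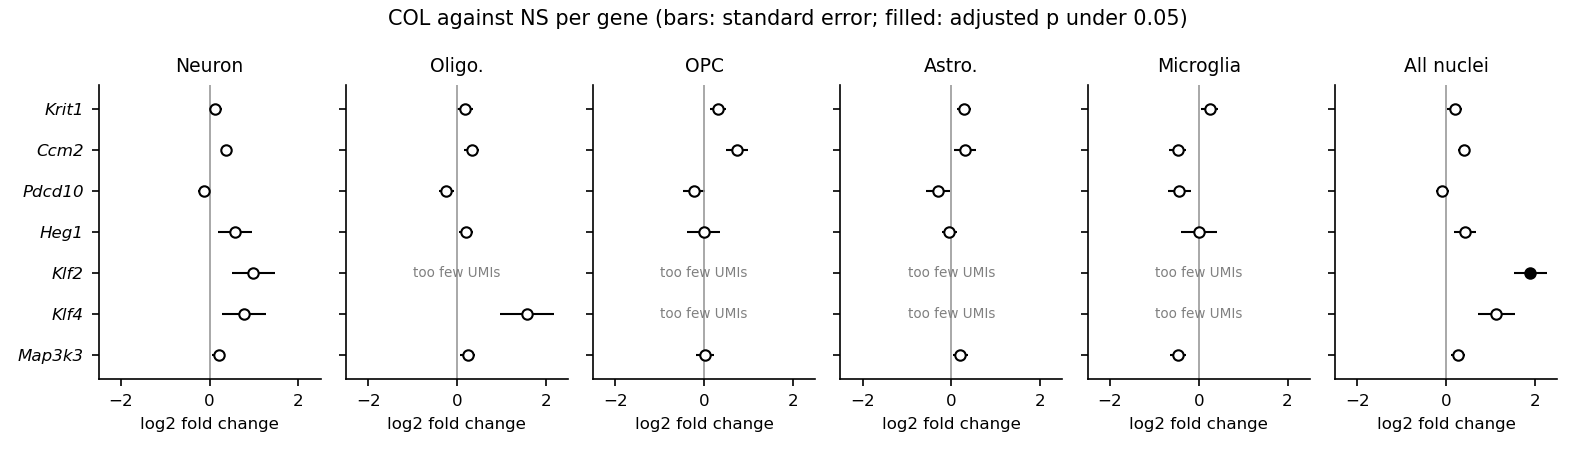
Log2 fold change of COL against NS for each gene in 5 cell types and over all nuclei (edgeR, 2 libraries per group), with bars for 1 standard error and filled points for an adjusted p under 0.05. Klf2 over all nuclei was the only filled point, at 1.90.

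Over all nuclei, Klf2 rose in COL. It had 0.297 and 0.335 CPM in NS and 0.935 and 1.21 CPM in COL, a 3.73-fold difference on the fitted scale (log2 1.90, SE 0.38, edgeR adjusted p = 0.035). It was the 1 of 7 members called, where 9.45% of all genes were called. KLF2 is the factor that shear stress and MEKK3 signalling induce in endothelium. Klf4, its close relative, had 1.29 and 0.597 CPM against 1.57 and 2.17 CPM (log2 1.14, SE 0.41, adjusted p = 0.11) and did not pass. The other 5 members had differences between -0.08 and 0.44, of which Ccm2 was nearest to the threshold (0.41, SE 0.13, adjusted p = 0.089). In such sums, a higher level per nucleus and more nuclei of a type that carries the gene cannot be told apart.

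The added Klf2 UMIs were spread over several classes of nuclei. Microglia held 1 and 1 UMIs in NS and 12 and 17 in COL, nuclei of mixed markers 1 and 3 against 18 and 21, and macrophages 0 and 0 against 6 and 5. Neurons held 11 and 12 UMIs against 14 and 24. As a level, microglia went from 1.44 and 1.53 CPM to 10.7 and 9.60 CPM, a ratio of 6.77 (95% exact interval 1.71 to 58.5, counting error only). The ratio was 1.80 in neurons (1.04 to 3.16), 4.82 in astrocytes (1.23 to 22.4) and 9.09 in mixed nuclei (3.28 to 35.0), and the interval included 1 in oligodendrocytes (2.29, 0.752 to 8.31) and in endothelial nuclei (0.876, 0.175 to 8.46). The counts of Klf2 in microglia were under the filter, so it was not tested in the main comparison. Without the filter its value there was 2.79 (SE 0.84, edgeR adjusted p = 0.011), where 12.66% of all genes were called. In microglia taken from clusters its value was 2.75 (adjusted p = 0.014), where Klf2 passed the filter through the COL libraries alone. Neither call is further support, since both rest on the same few NS UMIs. The microglial and macrophage marker sums given above moved with these values, and macrophages of COL had 9.38 and 5.66 CPM of Klf2. Their part was not tested. In neurons the fold change was 0.98 (SE 0.48, adjusted p = 0.23). When only the nuclei of the 5 types were summed, an alternative chosen after the values were seen, Klf2 was at 1.54 (adjusted p = 0.075). The call over all nuclei was lost with library totals (1.76, adjusted p = 0.058) and without either NS library (adjusted p = 0.14 and 0.097).

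The 39 UMIs of mixed nuclei in COL could not be given to a type. Among the clusters, the highest levels of Klf2 were in cluster 23, of mixed vascular markers and with 688 CPM of Flt1, with 23.6 CPM, in the T/NK cluster 25 with 19.8 CPM, and in microglial clusters 22 and 10 with 9.85 and 9.15 CPM. Microglial cluster 12, with 657 of its 666 nuclei from NS, had 1.38 CPM.

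Of the Klf4 UMIs, 89.0%, 63.4%, 62.4% and 57.0% lay in neurons in the 4 libraries, with 89, 26, 68 and 86 UMIs, where neurons held 76.6%, 69.9%, 75.3% and 66.7% of all UMIs. Mixed nuclei went from 4 and 3 Klf4 UMIs in NS to 19 and 31 in COL, a ratio of rates of 6.66 (95% exact interval 3.00 to 17.4, counting error only). NS replicate 1 had more neuronal UMIs than either COL library, and the difference of 0.78 in neurons was not called (SE 0.49, edgeR adjusted p = 0.33). In oligodendrocytes Klf4 had 4 and 5 UMIs in NS and 16 and 11 in COL (log2 1.58, SE 0.60, adjusted p = 0.087). It passed the low count filter there through the COL libraries alone, so this value is no further support. Cluster 20, of shallow nuclei with a median of 1275 UMIs and mixed markers, had 43.2 CPM of Klf4, more than any other cluster.

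**Figure D4:**
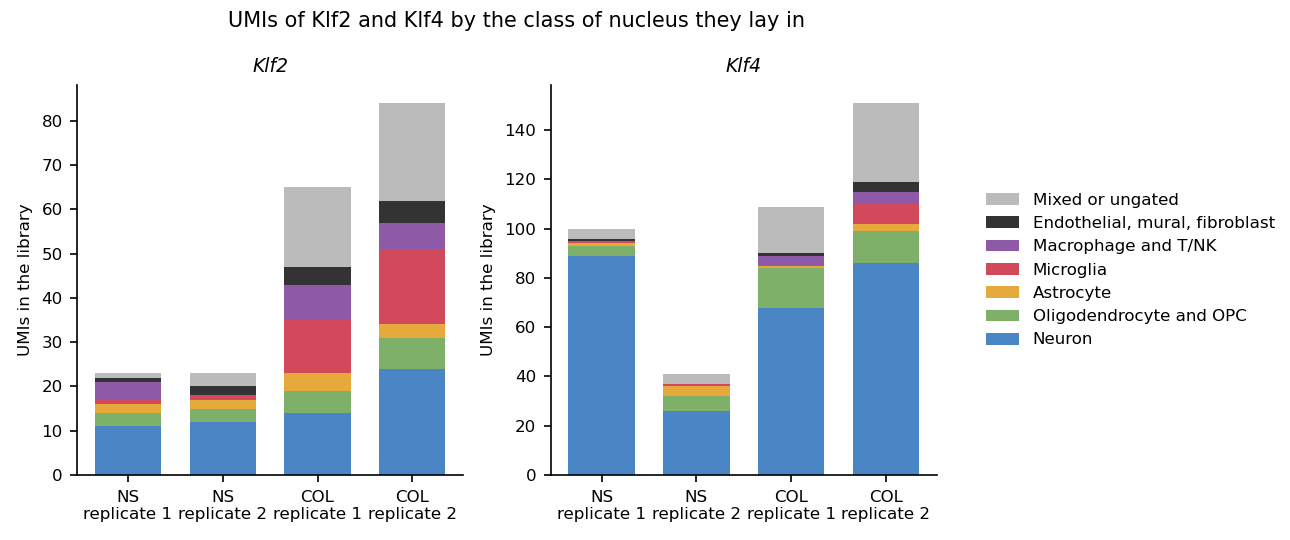
UMIs of Klf2 and Klf4 in each library (linear axis from 0), stacked by the class of nucleus in which they lay. The COL libraries held 65 and 84 Klf2 UMIs against 23 in each NS library, and mixed nuclei held more UMIs of both genes in each COL library than in either NS library.

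The wider pathway was followed by 62 further genes in 7 lists. Within the 5 types 28 of 250 tests were called, 21 higher and 7 lower in COL. The shares were 1 of 59 genes in neurons, 11 of 52 in oligodendrocytes, 5 of 48 in OPCs, 4 of 49 in astrocytes and 7 of 42 in microglia, that is 1.69%, 21.2%, 10.4%, 8.16% and 16.7%, beside the shares of all genes given above. Without NS replicate 1 or 2 only 10 or 9 tests were called, and without COL replicate 2 there were 57. Of the 28 calls, 6 held under every alternative run, 12 were not called with DESeq2 and 22 were lost without NS replicate 1 or NS replicate 2. Over all nuclei 8 of 61 genes were called, or 13.1%, beside 9.45% of all genes. Rap1b, Smurf1, Stk24, Cttnbp2nl, Mef2d, Thbs1 and Thbd were higher and Vcam1 was lower. Of these, Thbs1 and Thbd were called under every alternative run. Among calls that held throughout, Thbs1 within types, Mylk in OPCs and Thbd passed the low count filter through the COL libraries alone.

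Of the partners of the CCM complex, 3 of 32 tests were called, all higher, or 9.38% beside 13.5% of all tests. Rasip1, a Rap1 effector that stabilises junctions, rose in oligodendrocytes from 1.19 and 0.787 CPM to 4.89 and 4.03 CPM (log2 2.28, SE 0.43, edgeR adjusted p = 0.009). In NS replicate 2 Rasip1 was under the low count filter, which it passed only with the COL libraries. Smurf1, a ubiquitin ligase that targets RhoA and is bound by CCM2, rose in oligodendrocytes (0.81, SE 0.21, adjusted p = 0.026) and astrocytes (0.80, SE 0.16, adjusted p = 0.012). Of the GCKIII kinases, which bind PDCD10, and their STRIPAK phosphatase complex, 4 of 69 tests were called higher and 1 lower, together 7.25%. In oligodendrocytes Strip2 rose from 5.04 and 3.50 CPM to 24.6 and 21.4 CPM (2.53, SE 0.26, adjusted p = 0.0012), with Slmap (0.80) and the kinase gene Stk24 (0.59) also higher and the phosphatase scaffold gene Ppp2r1a lower (-0.74). Strn4 rose in OPCs (0.74, adjusted p = 0.023). Of these calls only Strip2 held under every alternative run. Stk24 was lost under 8, DESeq2 among them, Strn4 under 4, also with DESeq2, Ppp2r1a under 3, Slmap and Smurf1 in each type under 2, and Rasip1 under 1.

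In the arm from MEKK3 to MEF2, 5 of 29 tests were called, or 17.2%, beside 13.5% of all tests. Of these calls 3 were among the 5 genes tested in microglia, where 23.8% of all genes were called. With so few genes, nothing particular to the arm can be read from these counts. Map2k5, the kinase below MEKK3, rose in microglia from 169.8 and 178.7 CPM to 257.8 and 273.4 CPM (0.63, SE 0.17, edgeR adjusted p = 0.015) and in OPCs (0.80, adjusted p = 0.0061). The transcription factor genes Mef2c and Mef2a fell in microglia. Mef2c went from 1794 and 1748 CPM to 1072 and 998 CPM (-0.75, SE 0.15, adjusted p = 0.0034), and Mef2a from 1642 and 1671 CPM to 1041 and 998 CPM (-0.68, SE 0.15, adjusted p = 0.006). Mef2d rose in astrocytes (0.74, adjusted p = 0.023). The Mef2c, Mef2a and microglial Map2k5 calls were lost without NS replicate 1 or 2 and that of Map2k5 also with DESeq2. Mef2d was lost under 5 alternatives, DESeq2 among them, and Map2k5 in OPCs without NS replicate 2. The shift in microglial and macrophage markers and the split of microglial clusters by group, both given above, ran beside the microglial calls, and their part in them was not tested.

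Among targets of the KLF factors and matrix proteases, 7 of 23 tests were called, 5 of them of the single gene Thbs1, beside 13.5% of all tests. The list takes no account of the direction in which a KLF factor acts on a gene. A part of Klf2 in these calls was not tested. Thbs1, which encodes thrombospondin-1, was called higher in all 5 types. Outside neurons it passed the low count filter through the COL libraries alone, so those calls are no further support. In neurons it went from 0.573 and 0.500 CPM to 9.75 and 7.61 CPM (log2 4.18, SE 0.32, edgeR adjusted p = 0.024), and in oligodendrocytes from 0.265 and 0.525 CPM to 16.96 and 12.95 CPM (log2 5.19, SE 0.43, adjusted p = 0.00057). In OPCs, astrocytes and microglia the NS libraries held 2, 3 and 1 UMIs of Thbs1 in all, against 31, 29 and 61 in the COL libraries. The ratios of these rates were 13.4 (95% exact interval 3.40 to 115), 26.6 (8.25 to 137) and 28.5 (4.92 to 1143), where the intervals cover counting error only. The neuron call was lost with clusters and without NS replicate 1, and the OPC call with DESeq2 and without NS replicate 1. Macrophages of COL had 1061 and 633 CPM of Thbs1 and mixed nuclei 110 and 71.9 CPM. The part of free RNA from such cells in the like, low levels of the 5 types was not tested. Over all nuclei Thbd, the gene of thrombomodulin, rose from 6 and 8 UMIs to 75 and 72 (3.59, SE 0.46, adjusted p = 0.01). Thbd too passed the filter through the COL libraries alone, so this call is no further support. Vcam1, an adhesion molecule of activated endothelium, was lower in oligodendrocytes (-1.97, adjusted p = 0.032) and astrocytes (-1.02, adjusted p = 0.041), calls that were lost under 4 and 9 alternatives. In oligodendrocytes of COL replicate 1 Vcam1 was under the low count filter, which it passed only with the NS libraries.

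Of the RhoA and ROCK arm 2 of 34 tests were called, or 5.88% beside 13.5% of all tests. Mylk, myosin light chain kinase, rose in OPCs from 3.44 and 7.06 CPM to 37.7 and 36.1 CPM (2.88, SE 0.39, edgeR adjusted p = 0.00033). It passed the low count filter through the COL libraries alone, so this call is no further support. Cdc42 was lower in microglia (-0.48, adjusted p = 0.045), a call lost under 9 alternatives. Of the endothelial junction genes only Afdn in oligodendrocytes was called, 1 of 27 or 3.7% (0.54, adjusted p = 0.035). Of the other KLF genes, 5 of 36 tests were called, or 13.9%. Klf12 and Klf13 rose in oligodendrocytes (1.05 and 0.65), Klf7 in OPCs (0.56) and Klf10 in microglia (1.68, adjusted p = 0.039). Klf10 passed the low count filter there through the COL libraries alone. Klf9 fell in microglia (-1.45, adjusted p = 0.012). In COL replicate 1 Klf9 was under the low count filter there, which it passed only with the NS libraries. The calls of Klf7, Klf10 and Klf9 were lost under 5, 5 and 2 alternatives, DESeq2 among them each time, and that of Klf13 without NS replicate 1 or 2. Afdn was lost under 4 alternatives, also with DESeq2.

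The genes with the pattern most like a member were sought over the 20 sums of a library and type, by Pearson correlation of log2(CPM + 1) among 10746 genes of at least 10 CPM. These points share libraries and types, so the coefficients are descriptions. Nearest to Map3k3 was Mef2a (r = 0.981), a gene of the same arm, followed by Numb (0.979) and Smap2 (0.977). Nearest to Ccm2 were Cmtm7 (0.981), Irf5 (0.976) and Abi3 (0.973). Heg1 was nearest to Mapre2 (0.951), Grm3 (0.939) and Kif1b (0.938), Krit1 to Aig1 (0.919), Tbcd (0.916) and Lpgat1 (0.904), and Pdcd10 to Tmem179b (0.951), Atox1 (0.95) and Tmem127 (0.941). For Klf2 and Klf4, whose counts were sparse, the nearest genes reached 0.895 (Kcmf1) and 0.716 (Actr5).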

How the data were processed

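Nuclei of 2 NS and 2 COL libraries were sequenced by the authors on a 10x Chromium system and counted with Cell Ranger 1.2.0 against mm10, per the labels. The deposited tables hold raw UMI counts per gene and nucleus, with no normalization. Nuclei with over 50 genes and under 5% mitochondrial UMIs were kept. A nucleus took a type when at least 3 of its markers were detected and its score led the next type by 2 times or more, and otherwise was set aside as mixed or ungated; no doublet caller was applied in the main analysis. UMIs were summed per library and type and tested with edgeR 4.0.16 (quasi-likelihood F test, TMM, filterByExpr, Benjamini-Hochberg over all genes tested, threshold 0.05) in R 4.3.3. Types were compared in 1 fit with library as a block, and the COL effect between types by an interaction in a fit of type-by-group means with library within group as a block. SE is that of the log2 fold change. The library is the replicate, and p-values of COL against NS measure the spread between 2 pools of 3 mice per group. In comparisons of types they measure the spread of the type differences over the libraries of both groups. For the interaction it is the spread of type differences between libraries of the same group. Alternatives were DESeq2 1.42.0, other scalings, filters and type assignments, Seurat 5.3.0 clusters, removal of doublets by scores against simulated doublets, thinning to 2000 UMIs, a replicate block and leaving out each library. Scripts were tested on simulated counts. Intervals are exact (Poisson or Clopper-Pearson, 95%), and 3 UMIs is taken as the limit that a count of 0 allows. Positions are from GENCODE M21 and promoter windows, 250 bases before to 50 after a start, from RefSeq, both GRCm38. The members and gene lists were chosen with earlier results of these data known. Text names all 7 members, up to 4 called genes per list and type by adjusted p, and the 3 most similar genes per member. The split of neurons by Tcf7l2 and the sum over 5 types were added after the data were seen.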

Additional observations from a re-analysis of the deposited data

Results flagged for a closer look

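The COL effect on Ccm2 differed between cell types by the interaction test (edgeR adjusted p = 0.0434), which is why it is listed. That test used 1 joint fit and scaling, and the log2 fold changes given here are those of the separate fits per type. They were 0.38 in neurons, 0.34 in oligodendrocytes, 0.75 in OPCs, 0.31 in astrocytes and -0.47 in microglia. None of them passed the test within its own type. Under the alternatives with all 4 libraries the adjusted p of Ccm2 lay between 0.0017 and 0.28, and without 1 library between 0.029 and 0.28. Groups of 2 libraries are too small for a search for single libraries that stand apart.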

How the results depend on the processing

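With 2 libraries per group, the number of libraries limits every comparison. No member was called within a type in the main analysis. The count was 2 without the low count filter, Ccm2 in OPCs and Klf2 in microglia, the latter untested in the main analysis. Of all genes 9.4% and 12.66% were called there. It was 1 with a looser lead and 1 with 4 markers, beside 23.52% and 23.33% of all genes. Both were Klf4 in oligodendrocytes, which in the main analysis passed the filter through the COL libraries alone. With clusters it was 3 (Ccm2, Klf2 and Map3k3 in microglia), beside 28.69% of all genes, and Klf2 passed the filter through COL alone. Over all nuclei the 1 call became 0 with library totals, 0 for the 5 types only, 2 without the filter (Klf2 and Klf4) and 0 to 1 without 1 library. The 1 interaction call became 2 with library totals, without the filter and with clusters (Ccm2 and Map3k3 each time), 0 with the stricter lead, and 0 to 2 without 1 library. Pathway calls, 28 in the main analysis, were 18 with DESeq2, 18 after thinning, 44 without the filter and 9 to 57 without 1 library. Groups did not overlap in 17 of 35 thinned shares of nuclei and in 31 unthinned ones, beside 48.5% and 67.4% over all genes.

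Libraries of the same replicate number did not deviate together in the way that pairing requires, since the correlations of their deviations over genes were -0.09 to 0.19 and there were only 2 pairs. With the replicate block, 2 members were called within types (Ccm2 in OPCs and Map3k3 in microglia), 1 over all nuclei and 40 pathway tests, and Heg1 in microglia was at 0.012. Over all genes the block called 2349 in neurons, against 111 without it, 2843 with DESeq2 and 31 with library totals. Over all nuclei it called 5563, against 2416 and 4533 with DESeq2, and the share of higher calls was 53.1% with TMM and 58.3% with library totals. Without 1 library the counts over all genes were 0 to 6411 in neurons, 1620 to 6239 in oligodendrocytes, 941 to 2643 in OPCs, 1107 to 1734 in astrocytes, 1348 to 2951 in microglia and 1603 to 7012 over all nuclei, and without the filter 3730 in neurons and 6893 over all nuclei. DESeq2 called 652 against 1814 in OPCs, 977 against 1899 in astrocytes and 1199 against 2571 in microglia.

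Of 968 values of single members under an alternative, 869 kept their direction and side of the threshold, 31 newly passed, 28 no longer passed and 40 changed sign. None of those that changed sign was called in the main analysis, and the cause was not tested. For COL against NS, the log2 values that changed sign were -0.50 for Ccm2 in astrocytes and 0.20 for Heg1 in astrocytes after thinning, and 0.012 for Heg1 in astrocytes with clusters. Heg1 in OPCs was at 0.012 without the filter and 0.025 with doublets removed. Heg1 in microglia was at 0.034 with DESeq2, 0.019 with RLE, 0.11 without the filter, 0.026 without the mitochondrial filter, 0.48 and 0.25 with the looser and stricter lead, 0.21 with 4 markers and 0.40 with clusters. Krit1 in neurons was at -0.023 and Map3k3 in OPCs at -0.059 with library totals, Map3k3 in OPCs at -0.017 with doublets removed, and Map3k3 in astrocytes at -0.020 with clusters. For levels against the other types, Krit1 was at 0.0030 in OPCs and 0.0073 in neurons after thinning, 0.035 in neurons without the filter and 0.15 in microglia with library totals, and Pdcd10 in astrocytes at 0.033 with the stricter lead, 0.035 with clusters and 0.11 after thinning. Without 1 library, COL against NS ranged from -0.14 to 0.56 for Ccm2 and -0.098 to 0.0059 for Heg1 in astrocytes, -0.086 to 0.031 for Heg1 in OPCs, -0.10 to 0.20 in microglia and -0.036 to 0.98 in neurons, -0.030 to 0.32 for Krit1 in oligodendrocytes, -0.18 to 0.20 for Map3k3 in OPCs and -0.97 to 0.024 for Pdcd10 in astrocytes. Levels ranged from -0.087 to 0.069 for Krit1 in neurons and -0.11 to 0.080 for Pdcd10 in astrocytes.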
